A study of Mus musculus with 8 samples.

Results

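The calpain system of lens fiber cells (FC) was described at the level of RNA from the 9 rows of the deposited table whose gene symbol is Capn1, Capn2, Capn3, Capn5, Capn7, Capn10, Capn15, Capns1 or Cast, out of 35275 rows in all. The libraries came from lens FC of C57BL/6 mice (C57BL/6J in the study's methods) that breathed cigarette smoke in a whole-body chamber from around birth on, over 3.5 months (CS-exposed, 4 libraries), and from age-matched mice kept without smoke in the animal facility (untreated Ct, 4 libraries). No genotype beyond the strain is labelled, and for each library FC from right eyes of 4 mice were pooled, so that differences between single mice cannot be seen. The epithelial layer had been dissected away from the FC with forceps, by the study's methods. By the study's methods the groups hold male and female pools in equal number, and the labels do not say which library is which.

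Calpains are cysteine proteases that are switched on by calcium and cut their substrates at a few positions instead of degrading them. The classical enzymes, calpain 1 and calpain 2, are each a pair of a large catalytic subunit (Capn1 or Capn2) and the shared small regulatory subunit Capns1, and both are held in check by calpastatin (Cast), an inhibitor dedicated to them. Calpain 3 (Capn3), best known from skeletal muscle, also has a lens form called Lp82 that is made from an alternative first exon. In the lens, calpains cut crystallins, the filament proteins vimentin, filensin and phakinin, spectrin and membrane channels, both as fibers mature and in calcium-driven cataract of rodents. Capn5, Capn7, Capn10 and Capn15 are large subunits of the non-classical kind, which lack the calcium-binding end of the classical ones.

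The promoters of Capn2 and Capn3 are shown because the RNA of these 2 lies near the top and at the bottom of the family in the same cells. The sequences are the 250 bases before annotated starts, from RefSeq on GRCm38.p6, written 5′ to 3′ on the strand of the gene. Capn2 is on the minus strand (chr1:182517611-182517860), and Capn3 has an upstream start (chr2:120463343-120463592) and an internal start (chr2:120476659-120476908), both on the plus strand. The last 14 bases before the upstream Capn3 start overlap an exon of the GENCODE annotation, and the internal window overlaps none of this gene. Capitals mark TGCTGA, a half-site of the element bound by Maf factors, and TATATA, a form of the TATA box.
Capn2: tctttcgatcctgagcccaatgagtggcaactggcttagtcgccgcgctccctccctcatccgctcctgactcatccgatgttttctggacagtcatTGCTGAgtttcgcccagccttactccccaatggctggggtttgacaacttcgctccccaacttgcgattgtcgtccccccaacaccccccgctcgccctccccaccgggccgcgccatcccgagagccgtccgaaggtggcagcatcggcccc
Capn3 upstream start: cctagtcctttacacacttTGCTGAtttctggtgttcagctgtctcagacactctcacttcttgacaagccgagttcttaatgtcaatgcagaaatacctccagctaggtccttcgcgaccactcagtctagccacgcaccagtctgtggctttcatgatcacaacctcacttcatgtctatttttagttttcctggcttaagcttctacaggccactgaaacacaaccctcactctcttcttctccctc
Capn3 internal start: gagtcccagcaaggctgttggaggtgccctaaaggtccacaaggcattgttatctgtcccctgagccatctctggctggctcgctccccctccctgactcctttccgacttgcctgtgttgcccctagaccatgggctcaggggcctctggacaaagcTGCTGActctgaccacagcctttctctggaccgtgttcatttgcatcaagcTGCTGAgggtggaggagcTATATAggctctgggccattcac

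The internal Capn3 window held TGCTGA 92 and 41 bases before the start and TATATA 23 bases before it. The Capn2 window held TGCTGA 153 bases before the start, and the upstream Capn3 window 231 bases before it. Searched on both strands, TGCTGA stood in 16.1% and TATATA in 5.25% of the 32851 promoter windows of the same length. The observed over expected frequency of CpG was 0.840 in the Capn2 window, and 0.338 and 0.146 in the upstream and internal Capn3 windows. A value of at least 0.6, usual for promoters of broadly used genes, was found in 34.0% of all windows. Of the 8 members with an entry among the promoters (all but Capn5), 5 (Capn2, Capn7, Capn10, Capn15 and Capns1) reached 0.6 at an annotated start, and 3 (Capn1, Capn3 and Cast) did not. Over their windows this was 6 of 15 (40.0%). Windows of Capn1, Capn10, Cast and Capns1 also overlap an exon of their own gene. That of Capns1 (30195154 to 30195403) lies inside the gene, which begins at 30198811 on the minus strand. These letters are a description of the windows, and binding was not measured.

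Levels are given in FPKM, which the authors made from counts on genes by scaling to gene length and to the mapped fragments of the library, so that genes may be set side by side. The steps of low FPKM values gave back whole fragments for 9772 of 9794 genes tested, those reaching a mean of 1.0 FPKM in one group or both (99.8%). By the same steps, library depth ranged from 0.910 to 1.17 times that of the first untreated Ct library. Lens fiber markers (Crygs, Lim2, Bfsp1, Bfsp2, Mip, Gja3, Dnase2b, Hsf4, Birc7) summed to 54300 to 56566 FPKM in untreated Ct and 54129 to 58717 FPKM in CS-exposed libraries, so the labelled cell type was met. Most of this sum was Crygs, with a mean over 8 libraries of 41728 FPKM, whereas Lim2 was at 6.47 to 8.62 FPKM. Of 9 fiber markers tested 7 were higher in CS-exposed mice, 1 of them with an unadjusted limma p under 0.05 (Hsf4, log2 difference 0.090, limma adjusted p = 0.956) and 0 of 5 by limma-voom. Lens epithelium markers (Foxe3, Cdh1, Pdgfra, Gja1, Aqp1, Pax6, Mki67, Top2a) summed to 58.2 to 117 FPKM and 47.2 to 76.9 FPKM. Of 6 tested 5 were lower (median log2 difference -0.14), 0 with a p under 0.05 by limma and 1 (Foxe3, lower) by limma-voom. Over all genes, limma-voom gave a p under 0.05 for 484 of 9772, 235 of them lower. Rod photoreceptor markers, genes of the retina, summed to 11.9 to 31.9 FPKM in untreated Ct and 34.9 to 103 FPKM in CS-exposed libraries, and 9 of 10 tested had an unadjusted limma p under 0.05, all higher in CS-exposed mice, as had 2.75% of all genes tested in this direction. Pigment epithelium markers summed to 1.75 to 3.18 FPKM and 3.11 to 26.0 FPKM. All 4 tested (Rpe65, Rlbp1, Ttr and Rgr) were higher with an unadjusted limma p under 0.05 (median log2 difference 2.10, against 1.66 for rods). These 4 reached 1.0 FPKM only in the CS-exposed mean, so their direction was set by the minimum. Tyr, Tyrp1, Dct and Pmel stayed under it in both groups and were not tested. Blood markers summed to at most 1.59 FPKM and 20.8 FPKM, with 2 of 2 tested higher and a p under 0.05 for 1 of them (Hba-a1). The 2 blood genes tested (Hba-a1 and Hbb-bs) also passed only by the CS-exposed mean. The part of such RNA in the values below was not tested, and in bulk RNA fewer cells of a type and less RNA per cell cannot be told apart.

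RNA of the calpain system in lens FC was mostly that of the small subunit and of calpain 2. Capns1 (chromosome 7 of GRCm38, 30186936 to 30198811) made up 63.3% to 66.9% of the summed FPKM of the 9 members in every library, and Capn2 (chromosome 1, 182467260 to 182517608) made up 20.2% to 23.0%. Cast contributed 4.59% to 6.34%, and the remaining 6 genes shared the rest. By their mean over 8 libraries the order was Capns1 at 128 FPKM, Capn2 at 43.8, Cast at 9.89, Capn7 at 7.11, Capn10 (2.22 to 3.93 in single libraries), Capn1 at 1.55, Capn5 at 1.34, Capn15 at 1.33 and Capn3 at 0.114 FPKM. Neighbours from Capns1 down to Capn1 kept this order in 8 of 8 libraries with no overlap of their ranges, as did Capn15 above Capn3. Capn1, Capn5 and Capn15 could not be put in order, since Capn1 was above Capn5 in 4 of 8 libraries and Capn5 above Capn15 in 5 of 8.

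**Figure D1:**
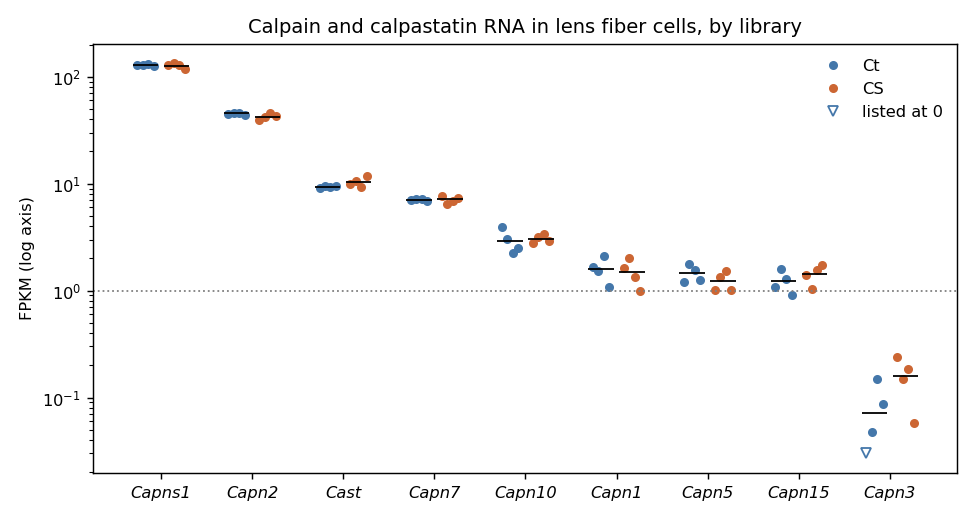
FPKM of the 9 genes (log axis) in each library of untreated Ct (blue) and CS-exposed mice (orange), replicates 1 to 4 from left to right, with group means as black lines, the dotted line at 1.0 FPKM and an open triangle for a value listed at 0. Capns1 lies at 119 to 133 FPKM and Capn3 at 0 to 0.239 FPKM, and the groups overlap for every gene.

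Levels between genes depend on the length by which the counts were divided. The length behind Cast was 1.87 times that behind Capns1, whereas all annotated exons of Cast together (GENCODE M21, 11470 bases) are 4.63 times those of Capns1 (2477 bases). On the exon lengths, with Capns1 kept at its value, Cast would be at about 4 FPKM and Capn7 at 10.8 FPKM, and their order would turn. The other 7 genes kept their place in the order, Capn2 at 35.4 FPKM and Capn1 at 2.30 FPKM. Comparisons of a gene between libraries are not touched by this.

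Each member overlaps at least 1 other annotated gene, 13 in all and 3 of them on the same strand. The 9 of these that the table lists had at most 1.86 FPKM in any library. Whether the counting used strand is not given in the sources used here.

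Among the catalytic subunits of the classical enzymes, Capn2 was far above Capn1. Capn2 was at 45.2, 45.9, 45.9 and 44.3 FPKM in untreated Ct and 39.0, 41.7, 45.4 and 42.9 FPKM in CS-exposed mice. Of the 4 CS-exposed libraries, 3 lay below every untreated Ct library, and replicate 3 lay among them. The group means were 45.3 ± 0.767 FPKM and 42.3 ± 2.69 FPKM (SD, n = 4 each), a difference of -0.10 on the log2 scale (SE 0.06, limma adjusted p = 0.956; 95% interval -0.23 to 0.02). The unadjusted limma p was 0.0914 and the two-sided exact permutation p was 0.0857, where the smallest that 4 against 4 libraries allow is 0.0286. Without CS-exposed replicate 3 the log2 difference was -0.14, with an unadjusted limma p under 0.05 and an adjusted p of 0.956, and without CS-exposed replicate 1 it was -0.065, with an unadjusted p above 0.05. Behind each Capn2 value stood 2564 to 3417 fragments.

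Capn1 (chromosome 19, 5988545 to 6015897), the catalytic subunit of the classical enzyme that needs less calcium, was at 1.67, 1.54, 2.12 and 1.09 FPKM in untreated Ct and 1.62, 2.00, 1.34 and 0.999 FPKM in CS-exposed mice. CS-exposed replicate 4 was below every untreated Ct library and the other 3 lay within their range, and the log2 difference was -0.11 (SE 0.24, limma adjusted p = 0.989). Across 8 libraries Capn1 varied by a CV of 25.8%, against 9.93% from counting alone at its mean of fragments. Capn2 was 20.9 to 43.0 times Capn1 in single libraries, and by the means over 8 libraries 28.3 times on the deposited FPKM and 15.4 times on exon lengths.

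The spread of Capn1 was set beside the epithelium markers, since the epithelium is the layer removed at dissection. Untreated Ct replicate 3 had both the highest Capn1 value and the highest sum of the 8 markers (117 FPKM), and CS-exposed replicate 4 had the lowest of both (0.999 FPKM of Capn1 and 47.2 FPKM of markers). Untreated Ct replicate 4 was second from the bottom in both (1.09 and 58.2 FPKM). The other libraries did not share an order, since CS-exposed replicate 3 had more marker RNA (76.9 FPKM) than CS-exposed replicate 2 (68.3 FPKM) and less Capn1. The part of epithelium in the Capn1 values was not tested.

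**Figure D2:**
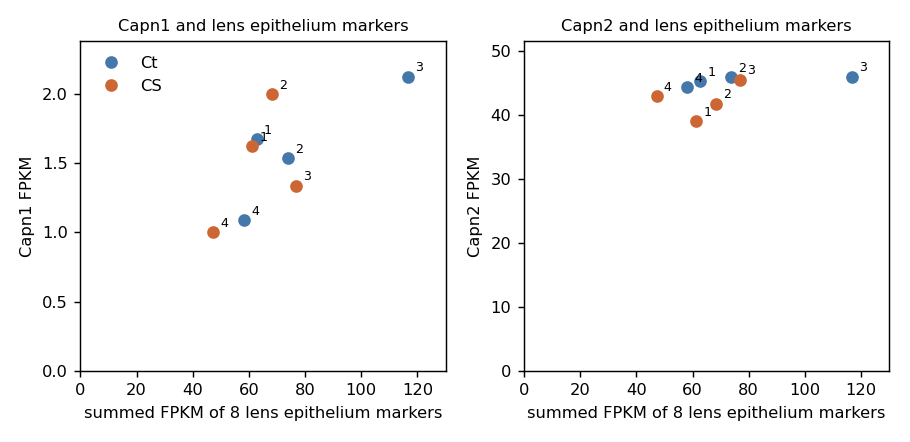
Capn1 (left) and Capn2 (right) FPKM against the summed FPKM of 8 lens epithelium markers in each library, with the replicate number beside each point and untreated Ct in blue and CS-exposed in orange. Untreated Ct replicate 3 stands at 117 FPKM of markers with 2.12 FPKM of Capn1 and 45.9 FPKM of Capn2.

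Capns1 was the steadiest member, with a CV of 3.38% over 8 libraries. It was at 129, 129, 132 and 126 FPKM in untreated Ct and 129, 133, 128 and 119 FPKM in CS-exposed mice. CS-exposed replicate 2 was the highest and replicate 4 the lowest of all 8, with a difference of -0.02 on the log2 scale (SE 0.04, limma adjusted p = 0.989) and a 95% interval of -0.12 to 0.08. A change of Capns1 beyond a fold of 0.921 to 1.06 thus lies outside the interval. Per library, Capns1 was 2.71 to 3.17 times the sum of Capn1 and Capn2, so that RNA of the small subunit exceeded that of both catalytic partners in 8 of 8 libraries.

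Cast (chromosome 13, 74692368 to 74808810), the inhibitor, was at 9.09, 9.47, 9.39 and 9.49 FPKM in untreated Ct and 9.92, 10.7, 9.21 and 11.9 FPKM in CS-exposed mice. Of the CS-exposed libraries 3 were above every untreated Ct library, and replicate 3 was again among the untreated ones. The means were 9.36 ± 0.186 FPKM and 10.4 ± 1.16 FPKM (SD, n = 4 each), a difference of 0.15 on the log2 scale (SE 0.09, limma adjusted p = 0.956; 95% interval -0.04 to 0.34). The exact permutation p was 0.114. Without CS-exposed replicate 3 the log2 difference was 0.21, with an unadjusted limma p under 0.05 and an adjusted p of 0.956, and without CS-exposed replicate 4 it was 0.083, with an unadjusted p above 0.05. The untreated Ct libraries were closer together than the CS-exposed ones for both Cast and Capn2.

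The same 3 CS-exposed libraries (replicates 1, 2 and 4) lay below untreated Ct for Capn2 and above it for Cast. Cast over the sum of Capn1 and Capn2 was 0.194, 0.200, 0.195 and 0.209 in untreated Ct, and 0.244, 0.244, 0.197 and 0.271 in CS-exposed mice. CS-exposed replicates 1, 2 and 4 lay above all 4 untreated Ct libraries, while replicate 3 lay within them. The level of the ratio depends on gene length, since by the means over 8 libraries it was 0.218 on the deposited FPKM and 0.106 on exon lengths. The means were 0.200 ± 0.00688 and 0.239 ± 0.0310 (SD, n = 4 each), and the CS-exposed mean was 0.253 without replicate 3 and 0.228 without replicate 4. CS-exposed replicate 3 also had the highest sum of rod markers (103 FPKM, against 34.9 to 64.4 FPKM in the other CS-exposed libraries) and of pigment epithelium markers (26.0 FPKM against 3.11 to 11.3 FPKM). CS-exposed replicate 4, with the highest Cast value and the highest ratio, had the highest sum of blood markers (20.8 FPKM, against 0.187 to 3.59 FPKM in the other 7 libraries). The part of these markers' tissues in the values was not tested. No test was made of the ratio, which joins members looked up with earlier results known.

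**Figure D3:**
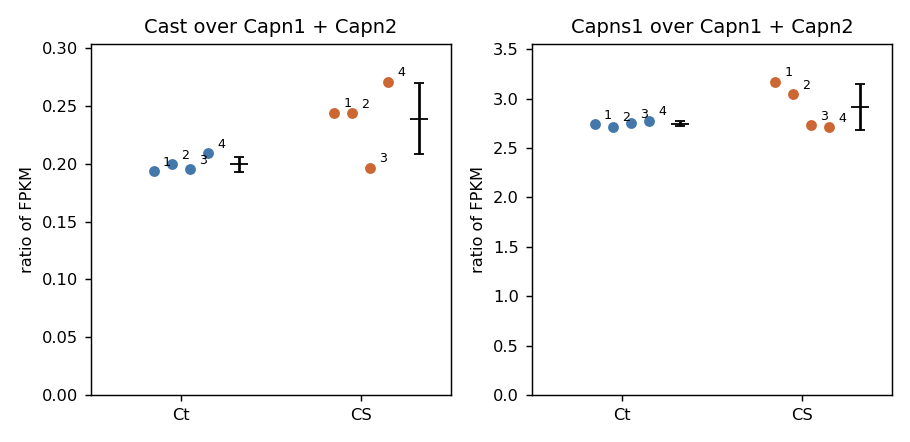
Ratio of Cast (left) and of Capns1 (right) to the sum of Capn1 and Capn2, from FPKM, in each library (points, with replicate numbers), with the group mean and SD in black (n = 4 each). On the left, CS-exposed replicates 1, 2 and 4 (0.244 to 0.271) lie above untreated Ct (0.194 to 0.209), and replicate 3 lies at 0.197.

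Capn3 (chromosome 2, 120456019 to 120504913), the gene of the muscle and lens-specific calpain, was close to the limit of detection. It was listed at 0, 0.0479, 0.149 and 0.0871 FPKM in untreated Ct and 0.239, 0.150, 0.184 and 0.0583 FPKM in CS-exposed mice. These values rest on 0, 3, 11 and 5 fragments in untreated Ct and 16, 11, 12 and 4 in CS-exposed libraries. In the library without a fragment, 3 fragments would be 0.0475 FPKM, the level that counting error alone allows. CS-exposed replicates 1, 2 and 3 were above every untreated Ct library, the nearest by 0.150 against 0.149 FPKM, and replicate 4 was among them (two-sided exact permutation test, p = 0.143). The 4 untreated Ct libraries held 19 fragments of Capn3 and the 4 CS-exposed libraries 43, and the CV over 8 libraries was 69.5% against 35.9% from counting alone. At its highest, Capn3 was 0.00588 of the sum of Capn1 and Capn2.

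The fragments were counted on the gene as a whole, and the annotation gives Capn3 protein-coding transcripts from 120463579 and from 120476918 on, near both starts shown above, so the count covers them together. Capn3 overlaps Ganc on the same strand, which was at 1.16 to 1.70 FPKM. Of 7 skeletal muscle markers, Mylpf and Ckm were at 1.80 to 4.63 FPKM and 1.13 to 3.52 FPKM, whereas Tnnt3 and Myh2 were listed at 0 in all 8 libraries and Acta1 in 7 of them. Their sum did not separate the groups (4.72 to 7.25 FPKM in untreated Ct and 4.62 to 8.69 FPKM in CS-exposed mice). Rod markers summed to 47.8, 64.4, 103 and 34.9 FPKM in CS-exposed replicates 1 to 4, all above untreated Ct (11.9 to 31.9 FPKM). The part of muscle or retina in the Capn3 values was not tested.

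The non-classical large subunits were low, and Capn7 was the highest of them. Capn7 (chromosome 14, 31336638 to 31371986), which lacks the domain that pairs with the small subunit and carries domains for contact with the membrane sorting machinery, was at 7.07, 7.20, 7.18 and 6.91 FPKM in untreated Ct and 7.73, 6.49, 6.94 and 7.36 FPKM in CS-exposed mice. The CS-exposed libraries lay on both sides of the untreated ones, with a difference of 0.0051 on the log2 scale (SE 0.08, limma adjusted p = 0.996). Capn10 (chromosome 1, 92934376 to 92947941), known from genetic studies of type 2 diabetes, was at 3.93, 3.05, 2.22 and 2.49 FPKM in untreated Ct and 2.79, 3.19, 3.37 and 2.90 FPKM in CS-exposed mice, with a difference of 0.09 on the log2 scale (SE 0.16, limma adjusted p = 0.985). All 4 CS-exposed values of Capn10 lay within the range of the untreated ones.

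Capn5 (chromosome 7, 98121559 to 98178274), whose human counterpart is mutated in an inflammatory disease of the retina, was at 1.21, 1.76, 1.56 and 1.27 FPKM in untreated Ct and 1.02, 1.34, 1.53 and 1.02 FPKM in CS-exposed mice. CS-exposed replicates 1 and 4 were below every untreated Ct library, and the log2 difference was -0.23 (SE 0.20, limma adjusted p = 0.975). Capn15 (chromosome 17, 25958364 to 25985796), the mouse relative of the fly gene small optic lobes, was at 1.07, 1.60, 1.30 and 0.911 FPKM in untreated Ct and 1.39, 1.05, 1.56 and 1.73 FPKM in CS-exposed mice. Only CS-exposed replicate 4 was above every untreated Ct library, with a difference of 0.22 on the log2 scale (SE 0.22, limma adjusted p = 0.976). Capn1, Capn5 and Capn15, with 58 to 163 fragments per library, had wide 95% intervals. On the log2 scale they ran from -0.64 to 0.43 for Capn1, -0.67 to 0.22 for Capn5 and -0.27 to 0.71 for Capn15. As folds these are 0.642 to 1.34, 0.628 to 1.16 and 0.832 to 1.64.

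Of the 9 members, 8 reached a mean of 1.0 FPKM, the minimum for testing, and did so in both groups. Capn3 did not, and was left out of this fit. In the limma fit of log2(FPKM + 0.1) over 9794 genes, 0 of the 8 members had an unadjusted p under 0.05, where 4.83% of all genes tested did (473, with 2.08% lower and 2.75% higher after exposure). With limma-voom on the recovered fragments the count was also 0. After Benjamini-Hochberg adjustment over all genes tested 0.0102% (1 gene, not a member) was under 0.05, and the members had adjusted p values of 0.956 to 0.996. The libraries of both groups overlapped for 9 of 9 members, and did not overlap for 3.08% of all genes tested. On the log2 scale 4 members were lower and 4 higher, with a median of -0.0077 against 0.0043 over all genes tested. The median absolute difference was 0.10 against 0.084. Capn7, the nearest to 0, turned to lower with median centring. Capn1, Capn7, Capn10 and Capns1 each turned when some single library was left out. A p value above 0.05 does not show that the groups were alike, and the intervals give the changes that these libraries leave possible.

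**Figure D4:**
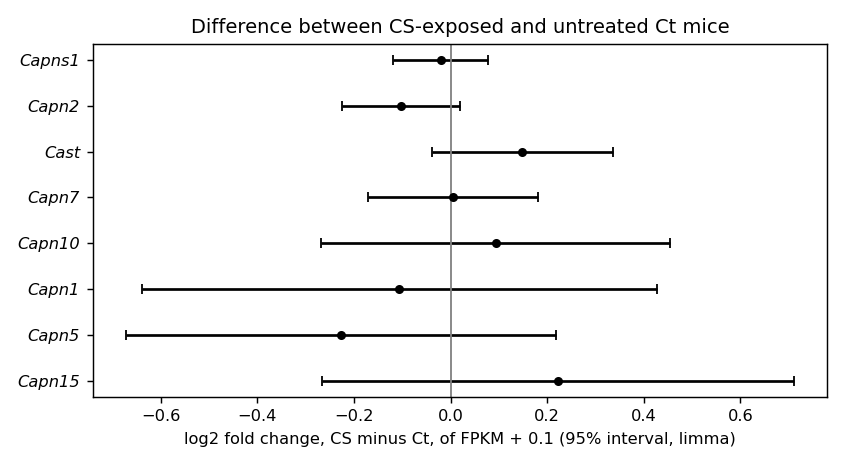
Log2 fold change of FPKM + 0.1 between CS-exposed and untreated Ct mice for the 8 members tested, with 95% intervals from limma (4 libraries each). All 8 intervals include 0, and they run from -0.12 to 0.08 for Capns1, the narrowest, and from -0.64 to 0.43 for Capn1, the widest.

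The other 7 genes of the family (Capn6, Capn8, Capn9, Capn11, Capn12, Capn13 and Capns2) all had a mean under 1 FPKM, so 0 of 7 were tested. Their sum per library was 0.639 to 0.850 FPKM in untreated Ct and 0.173 to 1.23 FPKM in CS-exposed mice, against 188 to 202 FPKM for the 9 members. The highest count among them was 28 fragments, of Capn11 in untreated Ct replicate 3, and Capn12 was listed at 0 in all 8 libraries. Calpains of the stomach and gut (Capn8 and Capn9) reached 22 and 13 fragments at most. Capn3, with 0 to 16 fragments, lay in the same range of counts.

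Known calpain substrates were abundant in the same libraries. The list was Sptan1, Sptbn1, Tln1, Vim, Bfsp1, Bfsp2, Cryaa, Crybb1, Cryba1, Mip and Gja3, and all 11 were tested. The highest was Cryaa (alpha A crystallin, the chief chaperone of the lens), at 95055 to 101638 FPKM in untreated Ct and 90037 to 95815 FPKM in CS-exposed mice, and the lowest Tln1 (talin, which links integrins to actin), at 6.30 to 7.07 FPKM in untreated Ct and 5.86 to 6.51 FPKM in CS-exposed mice. Of the 11, 0 had an unadjusted limma p under 0.05 (limma-voom, which could be run for 5 of them, also gave 0), against 4.83% of all genes tested, so that 0 of 11 is near the background, with 6 lower and 5 higher and a median log2 fold change of -0.01. The smallest p was that of Cryaa (log2 difference -0.06, SE 0.03, limma adjusted p = 0.956). Sptan1, the alpha spectrin cut by calpains in most tissues, was at 197 to 211 FPKM over both groups, and the filament genes Bfsp1 and Bfsp2 had log2 differences of 0.067 and 0.035.

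Genes for calcium entry, removal and buffering set the signal that calpains read. Of 16 genes 10 were tested and 0 had an unadjusted p under 0.05 by limma or by limma-voom, where 4.83% of all genes tested did by limma, a share at which few or no calls among 10 genes say nothing of the list, with 7 lower and 3 higher and a median log2 fold change of -0.01. Calm3, which encodes calmodulin, was the highest at 246 to 272 FPKM. Atp2a2, the calcium pump of the endoplasmic reticulum, was at 22.1, 23.6, 21.6 and 20.6 FPKM in untreated Ct and 23.6, 23.1, 24.0 and 23.4 FPKM in CS-exposed mice (log2 difference 0.10, SE 0.06, limma adjusted p = 0.956). The plasma membrane pumps Atp2b1, Atp2b2 and Atp2b4 had means over 8 libraries of 0.396, 0.0711 and 0.0567 FPKM, and the exchanger Slc8a1 of 0.808 FPKM, so that none of these 4 was tested. The lowest of the list was Atp2b4, at 0.00788 to 0.133 FPKM. Trpm3, a calcium-permeable channel whose human counterpart is linked to cataract, was at 41.4 to 49.0 FPKM over both groups.

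By Pearson r of log2(FPKM + 0.1) over the 8 libraries, among genes averaging 5 FPKM or more, the pattern of Capn2 was most like those of Lamtor1 (r = 0.957), Hist1h1c (r = 0.954) and Dctn1 (r = 0.944). Cast was most like Mrps36 (r = 0.886), Tmsb10 (r = 0.882) and Tmem242 (r = 0.878). Capn3 was most like Suclg2 (r = 0.945), Samm50 (r = 0.907) and Sirpa (r = 0.900), a likeness that rests on 0 to 16 fragments per library. Lamtor1 was at 30.3, 29.1, 29.6 and 28.4 FPKM in untreated Ct and 24.6, 25.9, 30.0 and 28.1 FPKM in CS-exposed mice, and like Capn2 it was lowest in CS-exposed replicates 1 and 2. These are the closest of 4693 genes for Capn2 and Cast and of 4694 for Capn3, the points share library and depth, and r is given as a description.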

How the data were processed

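Lens FC RNA of 4 untreated Ct and 4 CS-exposed pools was sequenced, and groups and replicate numbers were taken from the sample titles. Per the submitters' processing notes, the authors aligned reads to GRCm38 with STAR 2.5 and counted them with HTSeq 0.6.1. The deposited values are FPKM of each library, made by the authors from these counts, and the authors' mean FPKM of each group, which was not needed. The annotation release and the gene lengths are not given in the sources used here. The log2 fold change, p value and adjusted p value of the authors' own comparison were deposited too and were not used.

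Genes reaching a mean of 1.0 FPKM in one group or both were fitted on the scale log2(FPKM + 0.1) by limma 3.58.1 in R 4.3.3 (lmFit, then eBayes with trend), two-sided, with Benjamini-Hochberg adjustment over 9794 genes. Fold changes on this scale understate those of low genes. Single genes were also compared over all 70 assignments of the libraries. Of symbols on several rows the row with the highest mean was used. Whole fragments were recovered by trying up to 60000 for the smallest value, within 0.02 of a whole number. The steps were checked on simulated data: of 98 genes shifted by 1 on the log2 scale, 82.7% had an adjusted p under 0.05, and of 97 shifted by 0.5, 46.4%. Intervals cover the spread between libraries, and fragment counts the counting error only. Replicates are separate pools of mice.

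The members and lists were chosen with earlier results of these data known. From the substrate and fiber marker lists 1 gene is not reported here. Named were all members, genes of the substrate and calcium lists with an unadjusted p under 0.05 or the highest or lowest level, and the 3 genes most like Capn2, Capn3 and Cast. Other genes of these lists, and the promoter motifs, were singled out after their values or letters were seen. Alternatives were pseudocounts of 1 and 0.01, other minimum FPKM, median centring, quantile normalization, eBayes without trend or robust, the replicate block and leaving out each library. Limma-voom on fragments and exon union lengths were chosen after seeing the data. Python 3.11.15, numpy 2.4.6, pandas 2.3.3, scipy 1.17.1 and matplotlib 3.10.9 were used.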

Additional observations from a re-analysis of the deposited data

How the results depend on the processing

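Of 148 values of the 8 members under the alternatives, 137 kept their direction and stayed above a p of 0.05, and the adjusted p was at least 0.906 throughout. The members with a p under 0.05 numbered 1 with quantile normalization (Capn2 at -0.13, limma adjusted p = 0.950) and 0 to 2 when single libraries were left out. Both came without CS-exposed replicate 3, where Capn2 was at -0.14 (limma adjusted p = 0.956) and Cast at 0.21 (limma adjusted p = 0.956). The cause was not tested. Over all genes, 862 of 21019 had a p under 0.05 without a minimum FPKM and 226 of 4822 with a minimum of 5 FPKM, fits with more and fewer genes, against 473 of 9794 as reported. Leaving out 1 library gave 418 to 525 genes. Of the calls as reported 204 were lower and 269 higher; this split was 249 and 249 without trend and 286 and 220 without CS-exposed replicate 3.

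Directions turned for Capn1, Capn7, Capn10 and Capns1. With single libraries left out, the log2 difference of Capn1 ranged from -0.27 to 0.057, that of Capn7 from -0.034 to 0.048, that of Capn10 from -0.023 to 0.24 and that of Capns1 from -0.043 to 0.011. Capn2 ranged from -0.14 to -0.065 (without CS-exposed replicate 1), Cast from 0.083 (without CS-exposed replicate 4) to 0.21, Capn5 from -0.33 to -0.13 and Capn15 from 0.10 to 0.36, with no turn of direction. Capn1 was at 0.033 without untreated Ct replicate 3 and 0.057 without CS-exposed replicate 4, Capn10 at -0.023 without untreated Ct replicate 3, Capns1 at 0.011 without CS-exposed replicate 4, and Capn7 at -0.0069 without untreated Ct replicate 4 and -0.034 and -0.011 without CS-exposed replicates 1 and 4. With median centring Capn7 was at -8.5e-06. Capn3, in the limma fit only without a minimum, differed by 0.62 on the log2 scale (limma adjusted p = 0.906).

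Same-numbered libraries come from different mice and their numbers are not described as pairs, so they were not treated as pairs. Their deviations correlated at 0.012 to 0.16 over genes (2 of 4 pairs above 0.1), against -0.13 to 0.055 for libraries of different number. By this measure 6 of 8 libraries were closest to their own number, and what same-numbered libraries share was not tested. The fit with a replicate block gave 522 genes under 0.05, 0 of them members, and 5 genes with an adjusted p under 0.05, against 1 without the block. Counting alone gave a CV of 35.9% for Capn3 (69.5% observed) and of 8.92% to 10.1% for Capn1, Capn5 and Capn15 (19.7% to 25.8% observed).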
